A study of Mus with 9 samples.

Results

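The remaining kidneys of untreated 21-month-old mice were compared with those of 18-month-old mice by RNA sequencing, in 6 of the 9 libraries of the study. The libraries were chosen by their labels, 3 marked 21 mo and 3 marked 18 mo, and 15902 of the 54532 genes in the table had enough counts to be tested. The labels number the libraries and do not say whether each came from a separate mouse, so the p-values measure the spread between libraries, called mice here. All mice were male C57BL/6 mice that had lost 1 kidney by surgery (unilateral nephrectomy) at 18 months of age. The 18 mo group was killed 1 week after the operation. The 21 mo group received intraperitoneal saline for 12 weeks before it was killed. The other 3 libraries came from mice given the AMPK activator O304 over the same weeks. They entered the gene filter, the scaling and the estimate of the spread between mice, but not the difference itself. Age, the weeks since surgery and the injections therefore changed together and cannot be told apart, and no mouse with both kidneys entered the comparison.

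Each nephron of the kidney filters blood at the glomerulus, where podocytes cover the capillaries, and passes the filtrate through the proximal tubule, the thick ascending limb, the distal convoluted tubule and the collecting duct. Proximal tubule cells make up most of the cortex, take back sodium, phosphate, glucose, amino acids and filtered protein, and burn fatty acids in many mitochondria to pay for it. Injured tubule cells are known to lose these transport and metabolic genes and to switch on keratins, osteopontin, kidney injury molecule 1 and lipocalin 2, and macrophages and fibroblasts often gather around them. A kidney left alone after nephrectomy grows, and the aging mouse kidney is known for slowly gathering immune cells and matrix.

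The counts on genes summed to between 15636378 and 18227101 per library, so that 1 count was worth 0.0458 to 0.0669 CPM. This unit, a gene's count relative to the scaled size of its library, is used for single genes here. Each library held defining genes of the kidney, such as Umod of the thick ascending limb and Slc34a1 of the proximal tubule, given with their segments below. Values of single genes are listed for mice 1, 2 and 3 in that order, the 18 mo (younger) mice before the 21 mo (older) mice. Per length, in the deposited FPKM, the gene with the highest mean in the 18 mo group was Kap, an androgen-responsive proximal tubule gene, at 29036 FPKM. Mitochondrially encoded genes took 9.59%, 8.95% and 9.20% of the counts in the 18 mo mice and 11.6%, 9.66% and 6.59% in the 21 mo mice, so the older mice lay on both sides of the younger ones (exact permutation test, two-sided, p = 0.9, where 3 mice against 3 cannot give less than 0.1). Because whole kidney was sequenced, fewer cells of a type and less RNA per cell cannot be told apart in any value below.

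Only 3 genes passed the threshold of an adjusted p under 0.05 (edgeR's quasi-likelihood test, Benjamini-Hochberg), all of them higher in the 21 mo group, which is 0.0189% of the genes tested, while 0 (0%) were lower. The small number stood beside a wide difference. At an unadjusted p under 0.05, 4147 genes differed (26.1%), of which 2234 (14%) were higher and 1913 (12%) lower in the 21 mo group. In 2149 genes (13.5%) every 21 mo library lay above every 18 mo library, and in 2429 genes (15.3%) every 21 mo library lay below, 4578 or 28.8% in both directions together. At an adjusted p under 0.1 the counts were 877 higher (5.52%) and 787 lower (4.95%). A log2 fold change of at least 1 was reached by 1441 genes (9.06%) and one of at most −1 by 759 genes (4.77%), and 8387 genes (52.7%) had a log2 fold change above 0, with a median of 0.03 over all tested genes.

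**Figure D1:**
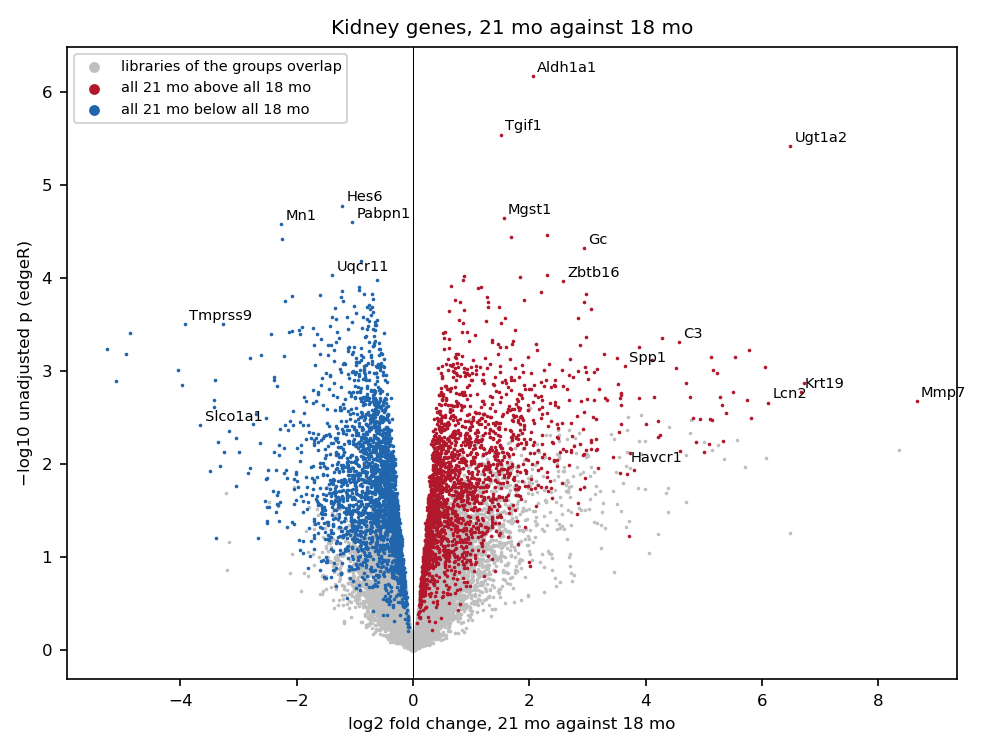
Each point is 1 of the 15902 tested genes, with the log2 fold change of 21 mo against 18 mo on the horizontal axis and −log10 of the unadjusted edgeR p on the vertical axis. Red and blue points are the 2149 and 2429 genes whose 21 mo libraries all lie above or below all 18 mo libraries. Aldh1a1, Tgif1 and Ugt1a2 stand highest, and the largest rightward values, such as that of Mmp7, have much larger p-values.

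The 3 mice of the 21 mo group differed from each other far more than the 18 mo mice did. The spread between mice, as a biological coefficient of variation, reached 44.0% for 21 mo against 18.0% for 18 mo and 20.6% for the O304 mice. In 21 mo 1, 203 genes lay at least 2-fold above the highest 18 mo library and 261 at least 2-fold below the lowest. The counts were 608 and 644 in 21 mo 2, and 1833 and 1719 in 21 mo 3. The third mouse was thus the farthest from the younger kidneys and the first the nearest. Each 18 mo library was set in the same way against the other 2, a range of fewer libraries. The counts above and below were 423 and 139 for 18 mo 1, 65 and 325 for 18 mo 2, and 181 and 94 for 18 mo 3. In the O304 mice they were 120 and 235, 298 and 184, and 205 and 230 against all 18 mo libraries. The counts of 21 mo 1 were thus of a size that other groups also showed. Among the 2234 genes that were higher at an unadjusted p under 0.05, 21 mo 3 had the highest of the 3 older levels in 1608, or 72.0%, and 21 mo 1 in 163, or 7.30%. Among the 1913 lower genes, 21 mo 3 had the lowest level in 1245, or 65.1%, and 21 mo 1 in 173, or 9.04%. Without 21 mo 1, 4186 genes passed the threshold, 2232 higher and 1954 lower, and without 21 mo 3 it was 130, of which 61 were higher and 69 lower. Without 21 mo 2 it was 1 gene, and without any single 18 mo library it was 0, with between 2702 and 6614 genes at an unadjusted p under 0.05 over the 6 fits that each left out a library. Levels of most single genes are therefore given by mouse below, as are the medians of many of the lists.

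Aldh1a1 encodes a cytosolic aldehyde dehydrogenase that makes retinoic acid from retinal. It was at 14.9, 14.2 and 14.8 CPM in the 18 mo mice and at 69.6, 64.7 and 48.2 CPM in the 21 mo mice. All 3 older mice were thus far above all younger ones, and the gene rose 4.16-fold, a log2 fold change of 2.06 with an SE of 0.17 and, by edgeR, adjusted p = 0.0105. The gene lies on chromosome 19 from 20492715 to 20643462 (GRCm38 coordinates of the deposited table), where C730002L08Rik and Gm6684 overlap it.

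Tgif1, a homeodomain repressor that restrains TGF-β and retinoic acid signaling, rose from 10.9, 10.2 and 10.6 CPM to 24.4, 33.02 and 32.8 CPM. The difference was 2.85-fold with little spread in either group, a log2 fold change of 1.51 with an SE of 0.15 and, by edgeR, adjusted p = 0.0202. It lies on chromosome 17 from 70844205 to 70853546 and no annotated gene overlaps it.

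Ugt1a2 is 1 of several UDP-glucuronosyltransferase genes that share their last exons and attach glucuronic acid to bilirubin, hormones and drugs. Its counts were 3, 1 and 2 in the 18 mo mice and 148, 93 and 413 in the 21 mo mice. At such counts in the younger mice, Ugt1a2 could pass the count filter only through higher levels in other libraries. Its direction was thus partly set by the filter. The ratio of the summed counts, scaled by library size, was 100.3 (exact 95% interval for counting error 45.8 to 274), and the fitted log2 fold change was 6.48 with an SE of 0.65 and, by edgeR, adjusted p = 0.0202. Its position on chromosome 1 from 88200601 to 88218997 overlaps Ugt1a1 and Ugt1a10, so reads of the shared exons may have been split among them by the authors' counting. Ugt1a10 stood at 2.85, 1.91 and 1.87 CPM in the 18 mo mice and 32.4, 26.995 and 19.8 CPM in the 21 mo mice, and here the first mouse was the highest (log2 fold change 3.57 with an SE of 0.85 and, by edgeR, adjusted p = 0.0718). Ugt1a2 passed the threshold in 10 of 16 alternative fits, and Aldh1a1 and Tgif1 in 11 of 17 each. None of the 3 passed it in the fit on only the 6 libraries compared.

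Besides these genes, the protein-coding genes with the smallest p among those whose groups did not overlap missed the threshold in both directions. Mgst1, a microsomal glutathione transferase, was at 50.7, 69.01 and 55.6 CPM in the younger and 138, 169 and 209 CPM in the older mice (log2 fold change 1.56 with an SE of 0.20 and, by edgeR, adjusted p = 0.0593). Prom1, a membrane protein of kidney progenitor and regenerating tubule cells, was at 71.7, 51.02 and 58.9 CPM and 162, 170.0 and 249.7 CPM. Both were higher in every older mouse, with fold differences of 2.95 and 3.204. Gc, the vitamin D-binding protein, was 7.699-fold higher, from 20.2, 18.7 and 23.4 CPM to 95.1, 256 and 129 CPM, with the second mouse highest. Cbr3, a carbonyl reductase, was 4.97-fold higher and Zbtb16, a glucocorticoid-responsive zinc finger protein, 5.96-fold higher. Smaller differences with little spread belonged to the translation initiation factor Eif1a at 1.83-fold and the apoptosis inhibitor Birc2 at 1.82-fold. The adjusted p of these 7 genes and of Adgre1, described with the macrophage genes, lay between 0.0593 and 0.0626 (edgeR's quasi-likelihood test).

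Among the genes of the opposite direction, Hes6, a helix-loop-helix regulator, was at 75.4, 94.6 and 86.2 CPM in the 18 mo mice and 40.3, 30.97 and 39.3 CPM in the 21 mo mice, 2.32-fold lower (log2 fold change −1.21 with an SE of 0.15 and, by edgeR, adjusted p = 0.0593). Pabpn1, which binds the poly(A) tails of nuclear RNA, was 2.07-fold lower, at 21.8, 21.2 and 19.6 CPM and 10.4, 9.605 and 10.3 CPM. The transcriptional coregulator Mn1 was 4.799-fold lower, at 5.698, 5.48 and 8.66 CPM and 1.54, 1.31 and 1.28 CPM. In all 3 genes the older mice were close to each other. Uqcr11, a small subunit of complex III, was at 294, 268 and 234 CPM and 125, 89.5 and 90.6 CPM, and Smdt1, a regulator of the mitochondrial calcium uniporter, was 1.797-fold lower. Esrra, the nuclear receptor ERRα that drives mitochondrial and fatty acid genes, was at 216, 234 and 214 CPM and 123, 91.5 and 70.04 CPM, 2.33-fold lower, and Ciapin1, needed for cytosolic iron-sulfur protein assembly, was 1.54-fold lower. The rest were the kinase Sbk1 at 1.85-fold, the ubiquitin ligase components Spsb2 at 1.904-fold and Herc3 at 1.91-fold, the zinc finger gene Zfp787 at 1.63-fold and Nxpe3 at 3.02-fold lower. Pabpn1, Mn1, Ciapin1, Spsb2, Herc3, Esrra, Smdt1, Zfp787 and Nxpe3 each overlap another annotated gene, and the library kit does not mark the strand, so their reads and those of the partner cannot be told apart.

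Because the older mice differed so much, the genes that stood apart in each of them were picked out after the values were seen. At a mean of at least 1 CPM in the higher group, 80 genes (0.503%) had all 3 older libraries at least 2-fold above the highest 18 mo library and 57 (0.358%) at least 2-fold below the lowest. Of the 80 higher genes 77 were protein coding, and of the 57 lower genes 35, with no share over all tested genes to set beside them. Several of the higher ones handle drugs, steroids and lipids. Cyp4a14, a fatty acid hydroxylase gene under PPARα control, was at 30.2, 62.1 and 38.2 CPM in the 18 mo mice and 577, 345 and 127 CPM in the 21 mo mice, and it was highest in the first mouse, the 1 that otherwise lay nearest to the younger kidneys. The same order held for Abcc4, an apical exporter of organic anions and cyclic nucleotides, at 35.4, 55.4 and 55.8 CPM and 228, 148 and 119.7 CPM. Cbr1, a carbonyl reductase, went from 50.6, 47.8 and 47.7 CPM to 189.6, 114 and 110.2 CPM, again with the first mouse highest. Abcc3, a basolateral exporter of glucuronides, was 7.85-fold higher at 17.6, 18.5 and 47.7 CPM in the older mice, with the third highest.

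Grem1, a secreted inhibitor of bone morphogenetic proteins, was at 0.3097, 0.616 and 0.453 CPM in the younger and 2.81, 2.67 and 19.1 CPM in the older mice, so that the first 2 older mice were alike and the third far above. Apoe, the apolipoprotein that macrophages and tubule cells secrete, was at 348, 206 and 314 CPM and 706, 1123 and 3298 CPM, a graded difference. Zbtb16 was at 1.67, 1.17 and 3.73 CPM and 13.6, 15.004 and 10.9 CPM and differed little among the older mice. The lower genes included 2 transporters of steroid conjugates and bile acids. Slco1a1, an androgen-dependent organic anion transporter of the proximal tubule, was at 152, 345 and 285 CPM in the 18 mo mice and 35.4, 25.4 and 1.603 CPM in the 21 mo mice, 12.6-fold lower on average (log2 fold change −3.65 with an SE of 0.94 and, by edgeR, adjusted p = 0.0792). Slc10a1, the sodium-taurocholate cotransporter, was low in all and 4.61-fold lower at 0.401, 0.455 and 0.366 CPM.

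The serine protease gene Tmprss9 was at 8.92, 9.61 and 7.81 CPM in the younger mice and 1.003, 0.739 and 0.0458 CPM in the older ones. Col19a1, a minor collagen gene, was at 2.91, 4.99 and 3.45 CPM and 0.401, 0 and 0 CPM, with no read in 2 of the 3 older mice. The RNA-binding protein gene Igf2bp1 was 4.38-fold lower at 2.88, 0.909 and 1.88 CPM. In the third older mouse the first 2 of these genes had at most 1 read. Cndp2, a cytosolic dipeptidase, was abundant in all 6 libraries, at 1568, 2569.8 and 1677 CPM in the 18 mo mice and 780.0, 647 and 331 CPM in the 21 mo mice. Dbp, a clock-controlled transcription factor, was tightly held at 84.2, 86.4 and 84.4 CPM in the 18 mo group and stood at 39.7, 28.8 and 15.99 CPM in the 21 mo group.

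**Figure D2:**
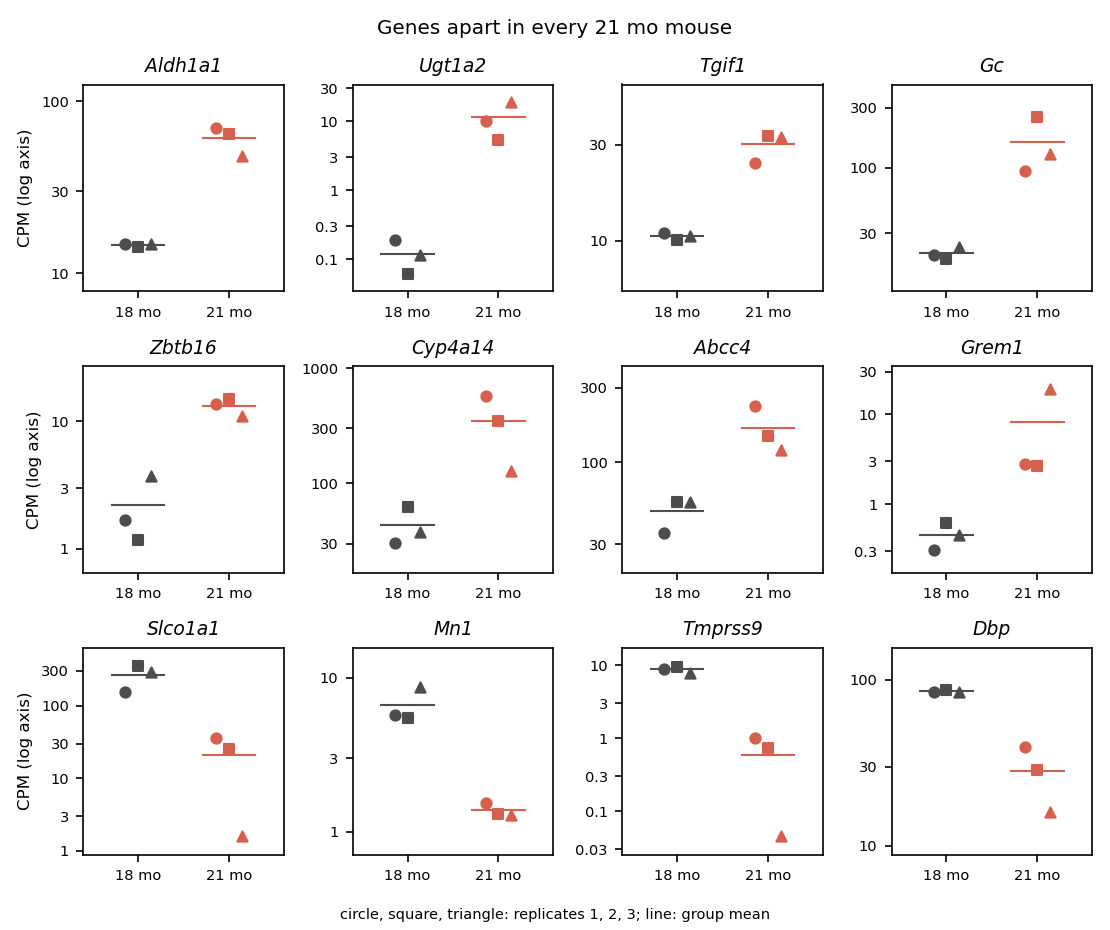
CPM on logarithmic axes of 12 genes in the 3 mice of 18 mo (grey) and the 3 of 21 mo (red), with circles, squares and triangles for replicates 1 to 3 and lines for group means. In every panel the older mice lie at least 2-fold outside the range of the younger ones, as for Aldh1a1 at 69.6, 64.7 and 48.2 against 14.9, 14.2 and 14.8 CPM.

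Of the 21 proximal tubule genes listed, all tested, 20 were lower and 1 higher in the older mice, and the median log2 fold change was −1.11. At an unadjusted p under 0.05, 5 were lower, against 12% of all genes, and in 9 every older mouse lay below every younger one, against 15.3%. None passed the threshold (edgeR). The 3 older mice formed a series in which the median log2 difference from the 18 mo mean was −0.15 in the first mouse, −1.41 in the second and −2.92 in the third, and without the third mouse the median log2 fold change was −0.63. Kap was at 20894, 24573 and 17968 CPM in the younger mice and at 18932, 2627 and 175 CPM in the older ones, so the first older mouse lay within the younger range and the third about 100 times below it. Slc34a1, the main phosphate cotransporter of the brush border, was at 4593, 6283 and 6189 CPM and 3510.4, 1815 and 471 CPM (log2 fold change −1.56 with an SE of 0.61 and, by edgeR, adjusted p = 0.154). Slc5a2, the glucose cotransporter SGLT2, was at 244, 264 and 537 CPM and 189.5, 123 and 49.5 CPM. Both genes were below every 18 mo library in each older mouse, least so in the first. Ass1, which makes argininosuccinate on the way to arginine, was at 2451, 3104 and 3331 CPM and 2149.5, 847 and 387 CPM, and the organic anion transporter Slc22a6 at 1026, 1779.7 and 1344 CPM and 890.5, 453 and 112 CPM, with the same order of mice.

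Transporters of organic ions and drugs were lower in 20 of 25 cases and higher in 5, with a median of −0.73. By mouse their medians were −0.03, −0.79 and −2.42. In the lower direction 9 did not overlap between the groups (15.3% of all genes), and in the higher direction 2 (13.5% of all genes). The 2 in the higher direction export drugs out of the cell. They were Abcc4 and Abcb1b, a P-glycoprotein gene that was at 13.4, 9.92 and 12.3 CPM in the younger and 66.96, 29.4 and 16.3 CPM in the older mice, and both were highest in the first mouse. Amino acid transporters had a median of −0.32, with 1 of 18 genes past an unadjusted p of 0.05 in each direction, where all genes had 14% higher and 12% lower. The 20 cytochrome P450 genes had a median of −0.28, which turned to 0.11 without the third mouse, and 12 of them were lower. Cyp4a12a, an androgen-dependent hydroxylase of arachidonic acid, was at 125, 163 and 220.4 CPM and 25.4, 74.96 and 9.39 CPM, 4.64-fold lower, while Cyp4a14 was 8.04-fold higher (log2 fold change 3.01 with an SE of 0.65 and, by edgeR, adjusted p = 0.0631). The Cyp4a genes are close copies of each other, and reads that fit several of them may have been split or dropped.

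Amino acid catabolism genes were lower in 30 of 33 cases (median −0.70), with medians of 0.10, −0.89 and −1.86 in the first, the second and the third older mouse, so the first lay slightly above the younger mean. Dao, the peroxisomal D-amino acid oxidase, was at 414, 458 and 449 CPM and 340.2, 205 and 128 CPM, and Prodh, the proline dehydrogenase of mitochondria, at 291, 341 and 328 CPM and 254, 132 and 146 CPM. Kynu, the kynureninase of tryptophan breakdown, was an exception at 6.57, 9.55 and 8.26 CPM in the younger and 40.6, 15.1 and 13.5 CPM in the older mice. It was highest in the first mouse. Genes of gluconeogenesis and fructose use were lower in 11 of 12 cases (median −0.79). Khk, the ketohexokinase that traps fructose, was at 750.5, 819 and 726 CPM and 570.1, 268 and 111 CPM. Glycolysis genes had a median of −0.09.

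Of 36 nuclear complex I subunit genes all 36 were lower, 25 of them at an unadjusted p under 0.05 (12% of all genes) and 23 without overlap (15.3% of all genes), with medians of −0.32, −0.67 and −0.95 in the 3 older mice. Ndufs6 was at 153, 129.6 and 125 CPM in the younger and 64.4, 43.2 and 48.3 CPM in the older mice, Ndufa13 at 240.2, 241 and 193 CPM and 129, 95.1 and 84.8 CPM, and Ndufa1 at 169, 146 and 132 CPM and 80.4, 49.7 and 55.1 CPM. These 3 subunit genes had log2 fold changes of −1.39, −1.13 and −1.27 and adjusted p-values of 0.0626 each (edgeR). Genes of the citric acid cycle and pyruvate entry had a median of −0.48, with 24 of 25 lower. By mouse their medians were 0.03, −0.54 and −1.14. Peroxisome genes had a median of −0.42, with 23 of 25 lower, and 0.11, −0.64 and −1.20 by mouse. In both lists the first older mouse thus lay at or slightly above the younger mean, and without the third mouse both medians were −0.23. The exception among the citric acid cycle and pyruvate genes was Pdk4, the kinase that shuts pyruvate out of the cycle. It was at 16.7, 25.3 and 15.4 CPM and 101, 85.4 and 19.9 CPM.

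Fatty acid oxidation genes had a median of −0.35, 18 of 21 being lower. Of these, 4 were lower at an unadjusted p under 0.05, a share near the 12% of all genes. By mouse the medians were 0.15, −0.23 and −1.19, so the first older mouse lay slightly above the younger mean. Without the third mouse the median of this list was −0.13. Etfb, a subunit of the flavoprotein that takes electrons from acyl-CoA dehydrogenases, was at 46.3, 63.7 and 55.6 CPM and 34.05, 21.2 and 21.3 CPM, and Acads, the short-chain acyl-CoA dehydrogenase, at 283, 346 and 288 CPM and 232, 145 and 91.6 CPM. Both were lower in all 3 older mice. Cpt1a, the gate of fatty acid entry into mitochondria, was at 507, 602 and 517 CPM in the younger and 518, 461 and 288 CPM in the older mice, so that the groups overlapped (log2 fold change −0.36 with an SE of 0.23 and, by edgeR, adjusted p = 0.339). Pdk4 and Cyp4a14, known targets of PPARα, were highest in the first of the older mice and lowest in the third. Among AMPK subunits and coactivators the median was −0.16. Prkaa2, a catalytic subunit of AMPK, was at 177, 233 and 196 CPM and 251, 151 and 79.5 CPM, and Ppargc1a, the coactivator PGC-1α, at 63.9, 50.6 and 54.6 CPM and 79.4, 60.9 and 37.1 CPM. Both overlapped between the groups and were highest in the first older mouse. Ppargc1b, the coactivator PGC-1β, was lower in all 3, at 11.95, 9.24 and 6.11 CPM and 5.55, 4.09 and 4.17 CPM.

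**Figure D3:**
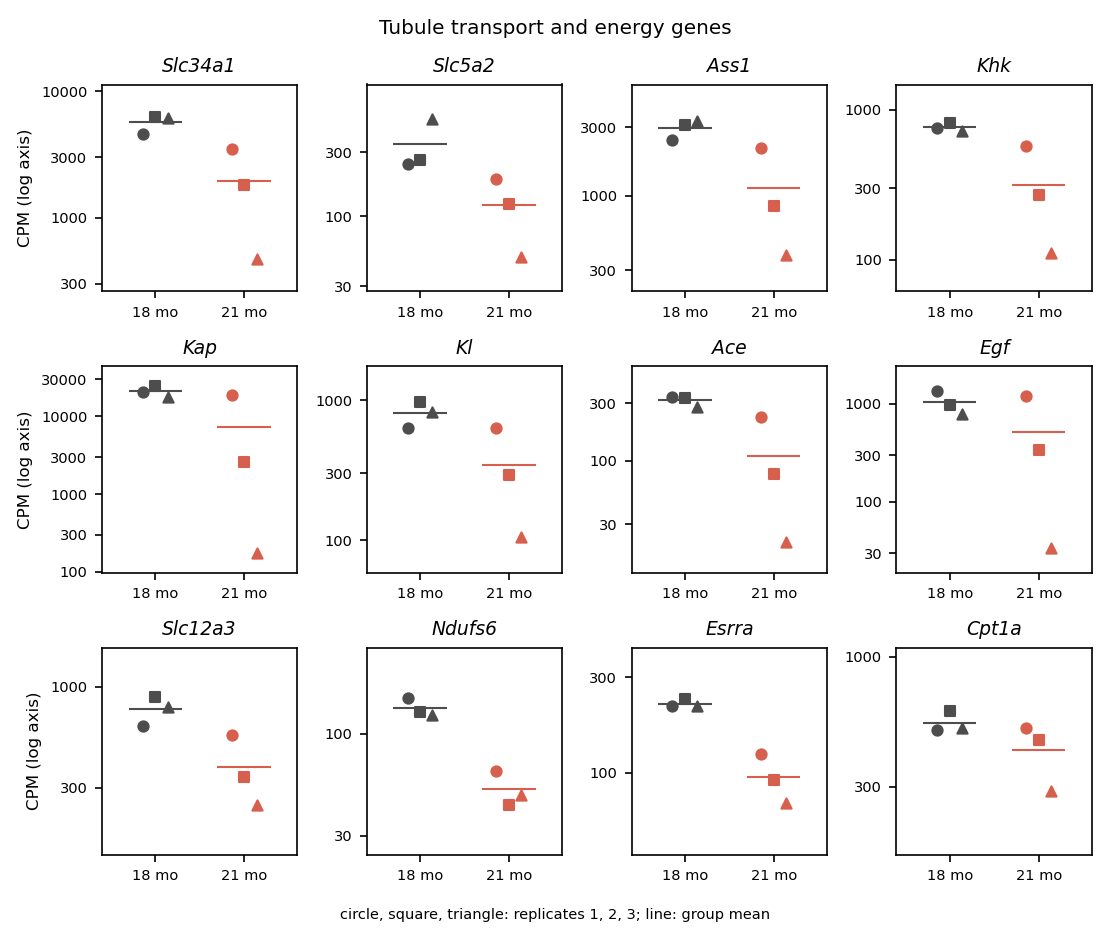
CPM on logarithmic axes of 12 transport and energy genes in the 18 mo (grey) and 21 mo (red) mice, with circles, squares and triangles for replicates 1 to 3 and lines for group means. In most panels the older mice descend from the circle to the triangle, as for Slc34a1 at 3510.4, 1815 and 471 CPM, while Ndufs6 and Esrra are low in all 3 and Cpt1a overlaps the younger mice.

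The 9 thick ascending limb genes had a median log2 fold change of 0.12, which turned negative without the first older mouse and without the second or the third 18 mo mouse. Umod, the uromodulin gene of this segment, was at 4767, 1886 and 2271 CPM in the younger and 4479, 4360.5 and 2008 CPM in the older mice, so the groups overlapped. Egf, the precursor of the epidermal growth factor in urine, was at 1346, 984 and 797 CPM and 1191, 339 and 34.1 CPM, so the first older mouse lay inside the younger range and the others below it. Distal convoluted tubule genes had a median of −0.43, and 7 of 8 were lower. At an unadjusted p under 0.05, 2 were lower and 1 higher, where all genes had 12% lower and 14% higher. The higher one was Trpv5, with a log2 fold change of 0.98 and overlap between the groups. In the first older mouse the distal convoluted tubule genes lay near the younger mean, with medians of 0.03, −0.84 and −0.77 by mouse. Slc12a3, their thiazide-sensitive cotransporter, was at 624, 880.2 and 786 CPM and 565, 340.0 and 244 CPM, below the younger mice in all 3 (log2 fold change −0.99 with an SE of 0.30 and, by edgeR, adjusted p = 0.0975).

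Principal cell genes of the collecting duct had a median of 0.05 that changed sign without the second or the third older mouse. Of the 8 tested, 5 were higher and 3 lower. Aqp2, the water channel gene at the head of the list, was at 325, 109 and 118 CPM and 193, 328 and 151 CPM, so the groups overlapped. Aqp3, their basolateral water channel, was at 121, 94.5 and 82.9 CPM and 70.2, 80.5 and 35.5 CPM, lower without overlap. Intercalated cell genes, which serve acid-base balance, had a median of −0.46. The proton pump subunit gene Atp6v1g3 was at 33.2, 44.6 and 34.8 CPM and 22.1, 21.99 and 26.6 CPM, and the homeobox gene Hmx2 at 7.99, 13.8 and 10.5 CPM and 3.28, 3.64 and 1.92 CPM, where Fgfr2 overlaps it. Both were below every younger mouse in each older mouse, on average 1.59-fold lower for Atp6v1g3 and 3.66-fold for Hmx2. Podocyte genes had a median of 0.70 that rested on the third mouse and was −0.01 without it. The 10 endothelial genes were all lower, with a median of −0.40. Of these only Egfl7, a secreted vascular protein, reached an unadjusted p under 0.05, a share near the 12% of all genes, at 59.6, 65.9 and 63.1 CPM and 54.2, 36.7 and 30.9 CPM.

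Hormone and mineral genes of the tubule split by gene. Kl, the co-receptor Klotho for the phosphate hormone FGF23, was at 636, 971 and 827 CPM in the younger and 633, 291 and 105 CPM in the older mice (log2 fold change −1.24 with an SE of 0.52 and, by edgeR, adjusted p = 0.176). Pth1r, the parathyroid hormone receptor, was at 657, 844 and 796 CPM and 507, 420.4 and 164 CPM, and Slc9a3r1, the scaffold NHERF1 that holds phosphate transporters in the brush border, at 451, 522 and 459 CPM and 356, 271 and 201 CPM. With Slc34a1 these genes of phosphate handling were all below every younger mouse. Cyp27b1, which makes active vitamin D, and Trpv6, a calcium channel, lay on the other side. Cyp27b1 was at 1.98, 3.02 and 5.94 CPM and 2.68, 10.8 and 58.6 CPM, where the first older mouse lay inside the younger range. Trpv6 was at 0.991, 0.678 and 0.905 CPM and 1.204, 5.91 and 14.8 CPM. The whole list of 16 had a median of −0.24.

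Ace, the angiotensin-converting enzyme, was at 337, 334 and 278 CPM in the younger and 231, 77.6 and 21.4 CPM in the older mice. Ren1, the renin gene, was at 12.6, 13.5 and 41.7 CPM and 10.4, 7.84 and 10.3 CPM, and Mas1, the receptor of angiotensin 1-7, at 2.91, 3.51 and 1.87 CPM and 0.803, 0.625 and 0.5497 CPM. All 3 were below every younger mouse, and Mas1 overlaps the noncoding gene Airn, which was at 11.8, 12.6 and 9.73 CPM and 2.88, 2.33 and 1.97 CPM. Edn1, the vasoconstrictor endothelin 1, was at 2.29, 0.924 and 2.04 CPM and 1.61, 13.9 and 20.8 CPM, higher in the second and the third older mouse only. Igfbp3, a carrier of insulin-like growth factors, was at 204, 321 and 437 CPM and 167, 136 and 87.6 CPM, 2.46-fold lower.

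Tubule injury genes were the list with the largest median, 2.57 on the log2 scale. All 20 were higher, 18 of them at an unadjusted p under 0.05, against 14% of all genes, and 11 without overlap, against 13.5%. None had an adjusted p under 0.05 (edgeR). The medians were 0.43, 2.59 and 3.06 in the first, the second and the third older mouse, so that here the second mouse stood close to the third, and the median was 1.78 without the third mouse and 3.06 without the first. Havcr1, kidney injury molecule 1, was at 10.9, 23.5 and 8.71 CPM in the younger and 11.6, 475 and 61.2 CPM in the older mice, within the younger range in the first and highest in the second. Lcn2, lipocalin 2, was at 15.4, 2.095 and 5.71 CPM and 17.5, 323 and 1258 CPM. Spp1, osteopontin, was the most abundant, at 742, 646 and 614 CPM and 1235, 11162 and 12555 CPM. Here the first mouse was only modestly above the younger ones and the other 2 were far above them. Krt19, a keratin of ducts and injured tubules, was at 0.743, 0.678 and 0.792 CPM and 1.61, 26.8 and 198 CPM, and Krt20 at 0.372, 0.431 and 0.735 CPM and 1.003, 20.7 and 14.4 CPM. Sox9, a transcription factor of regenerating tubule cells, was at 1.49, 2.59 and 2.55 CPM and 3.01, 26.9 and 48.7 CPM, and Vcam1, an adhesion molecule of incompletely repaired tubule and vessel cells, at 16.2, 24.1 and 27.4 CPM and 37.5, 245 and 143 CPM. Cp, ceruloplasmin, was at 70.2, 38.5 and 47.1 CPM and 149, 378 and 687 CPM (log2 fold change 2.96 with an SE of 0.61 and, by edgeR, adjusted p = 0.0626).

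Immediate early genes had a median of 1.32, with 10 of 19 higher at an unadjusted p under 0.05, against 14% of all genes. By mouse their medians were 0.17, 1.20 and 2.12. Myc, the growth regulator, was at 5.203, 3.204 and 4.47 CPM in the younger and 10.03, 25.5 and 23.4 CPM in the older mice, and Klf6, an injury-responsive zinc finger gene, at 38.2, 36.9 and 43.05 CPM and 59.1, 190.3 and 186 CPM. In both the second and the third older mouse were alike. Of 25 tested p53 targets and cyclin-dependent kinase inhibitors, 23 were higher and 10 of these reached an unadjusted p under 0.05, against 14% of all genes (median 0.55). Eda2r, a p53-responsive receptor of the tumor necrosis factor family, was at 2.42, 1.73 and 2.04 CPM and 2.48, 11.8 and 7.38 CPM, higher than the younger mice by little in the first mouse. The p21 gene Cdkn1a was at 11.2, 10.04 and 16.3 CPM and 23.9, 44.3 and 79.8 CPM. Cdkn2a, which encodes p16 and p19ARF, had too few counts to be tested, 1, 3 and 0 in the younger and 2, 4 and 59 in the older mice, so almost all of its reads came from the third mouse. Cell cycle genes had a median of 0.63 and medians of −0.69, 1.12 and 0.86 by mouse. Mki67, a marker of dividing cells, was at 7.25, 7.52 and 10.01 CPM and 3.61, 31.2 and 16.6 CPM, below the younger mice in the first and highest in the second. Pcna, the DNA polymerase clamp, differed by 1.29-fold without overlap, at 42.9, 41.96 and 48.4 CPM and 51.7, 56.9 and 63.5 CPM.

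Macrophage genes stood apart in all 3 older mice. All 15 were higher, 14 at an unadjusted p under 0.05 (14% of all genes) and 14 without overlap (13.5% of all genes). The median log2 fold change over the list was 1.71, and the medians by mouse were 1.00, 1.41 and 2.60. The summed level of the list was 363 to 594 CPM in the younger mice and 929 to 4185 CPM in the older ones, and without the third mouse the median was 1.19. Adgre1, which encodes the macrophage marker F4/80, was at 15.2, 7.702 and 14.9 CPM in the younger and 36.7, 41.03 and 57.9 CPM in the older mice (log2 fold change 1.84 with an SE of 0.28 and, by edgeR, adjusted p = 0.0626). Mpeg1, a pore-forming protein of phagocytes, was at 37.2, 31.5 and 50.2 CPM and 95.1, 104 and 191 CPM, and Lyz2, lysozyme, at 179, 80.4 and 98.7 CPM and 317, 691 and 2197 CPM. Genes of scavenging and lipid-handling macrophages were far highest in the third mouse. Mrc1, the mannose receptor, was at 6.13, 4.07 and 5.66 CPM and 16.5, 29.8 and 108 CPM, Trem2, a lipid receptor, at 2.04, 1.79 and 0.962 CPM and 5.22, 8.13 and 57.2 CPM, and Cd163, the hemoglobin scavenger receptor, at 0.186, 0.123 and 0.226 CPM and 0.803, 1.59 and 28.7 CPM.

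Of 10 neutrophil genes listed, 5 had enough counts to be tested. All 5 were higher at an unadjusted p under 0.05, against 14% of all genes. Genes as low in the younger mice as Cxcr2 could pass the count filter only through higher levels in other libraries. The direction of the tested genes was thus partly set by the filter, and no conclusion is drawn from it. Their medians by mouse were 2.63, 0.88 and 2.37, so that the first mouse was the highest. S100a8, a calprotectin subunit, was at 4.15, 2.71 and 3.96 CPM in the younger and 23.5, 6.65 and 21.3 CPM in the older mice, and the chemokine receptor gene Cxcr2 at 0.372, 0.555 and 0.453 CPM and 2.81, 1.19 and 2.199 CPM. Red cell genes were also highest in the first older mouse. Their summed level was 59.5 to 287 CPM in the younger mice and 917, 37.0 and 11.7 CPM in the 3 older ones, and Hbb-bs, a β-globin gene, was at 115, 11.5 and 83.3 CPM and 519, 8.52 and 2.02 CPM. Whether blood left in the tissue had a part in the neutrophil values was not tested. T cell genes, 12 of 14 higher with a median of 0.80, were likewise highest in that mouse, at a median of 1.34 against 0.19 and 0.46. Their defining gene Cd3e was near the lowest levels tested, at 0.743, 0.493 and 1.07 CPM and 1.74, 0.852 and 1.01 CPM, and overlapped between the groups.

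Of 11 B cell genes listed, 7 had enough counts to be tested. Their median was 0.74, and 0.30 without the third mouse, and it turned negative in 1 alternative. B cell genes as low in the younger mice as Cd22, at 0.186, 0.370 and 0.566 CPM, could pass the count filter only through other libraries. Plasma cell genes had a median of 0.84, which was −0.10 without the third mouse. Jchain, the joining chain of secreted antibodies, was at 131, 99.4 and 217 CPM in the younger and 85.1, 102 and 608 CPM in the older mice, and Ighm, the heavy chain of IgM, at 29.05, 14.5 and 17.7 CPM and 195, 25.01 and 1451 CPM. Antibody genes as a whole took 0.0675% to 0.145% of the counts in the younger mice and 0.0879%, 0.0680% and 0.860% in the older ones (exact permutation test, two-sided, p = 0.8). Dendritic cell genes had a median of −0.14 and adipocyte genes one of −0.16, and both changed sign in some of the alternatives.

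Complement and acute phase genes had a median of 1.68, and medians of 0.35, 1.03 and 2.65 by mouse. At an unadjusted p under 0.05, 15 of 21 tested genes were higher, against 14% of all genes. At the same p 2 were lower, near the 12% of all genes. C3, the central complement component, was at 18.2, 38.6 and 31.6 CPM in the younger and 73.8, 809 and 1217 CPM in the older mice (log2 fold change 4.57 with an SE of 0.86 and, by edgeR, adjusted p = 0.0626). Cfi, which cuts C3b, was at 4.52, 5.36 and 7.24 CPM and 14.8, 37.7 and 69.4 CPM, and C4b at 19.1, 23.3 and 33.4 CPM and 41.4, 63.3 and 175 CPM. The fibrinogen chain genes Fga and Fgb, which injured tubules are known to express, were at 15.98, 19.2 and 19.3 and 0.743, 0.801 and 1.53 CPM in the younger and 38.2, 83.8 and 136 and 2.68, 12.5 and 21.9 CPM in the older mice. In all 5 genes the first older mouse was the lowest of the older mice and the third the highest. The 2 lower genes were Cfb, complement factor B, at 29.5, 27.7 and 33.4 CPM and 20.1, 8.13 and 4.58 CPM, and C4a at 1.796, 2.53 and 2.15 CPM and 0.468, 0.341 and 0 CPM. C4a is a near copy of C4b and Cfb overlaps Gm20547, so the counts of both are uncertain.

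Of 26 chemokine genes listed, 22 had enough counts to be tested. Of these 21 were higher, with a median of 1.47, and medians of 0.69, 0.66 and 1.96 by mouse. Chemokine genes as low in the younger mice as Ccl7 could pass the count filter only through other libraries. The direction of the list was thus partly set by the filter. Ccl7, which attracts monocytes, was at 0.434, 0.3697 and 0.283 CPM in the younger and 1.47, 3.86 and 23.04 CPM in the older mice, and Ccl9 at 5.45, 6.78 and 6.79 CPM and 16.1, 33.8 and 169 CPM. Interferon-stimulated genes had a median of 0.93, 27 of 28 being higher, as with the GTPase gene Irgm1 at 41.4, 44.3 and 45.9 CPM and 60.8, 109.8 and 87.1 CPM. MHC class II genes were about equally high in the 3 older mice, with medians of 0.64, 0.81 and 0.62. Of 11 genes, 7 were higher at an unadjusted p under 0.05 (14% of all genes) and 7 without overlap (13.5% of all genes), and the median was 0.61 in all and 0.69 without the third mouse. H2-Aa, an antigen-presenting chain, was at 218, 195 and 275 CPM and 425, 438 and 348 CPM, and H2-DMb2, a chain of the peptide loader, at 1.73, 2.16 and 2.43 CPM and 4.68, 18.4 and 18.2 CPM. B2m, the light chain of MHC class I, was at 252, 257 and 344 CPM and 522, 782 and 717 CPM, in a class I list with a median of 0.48.

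**Figure D4:**
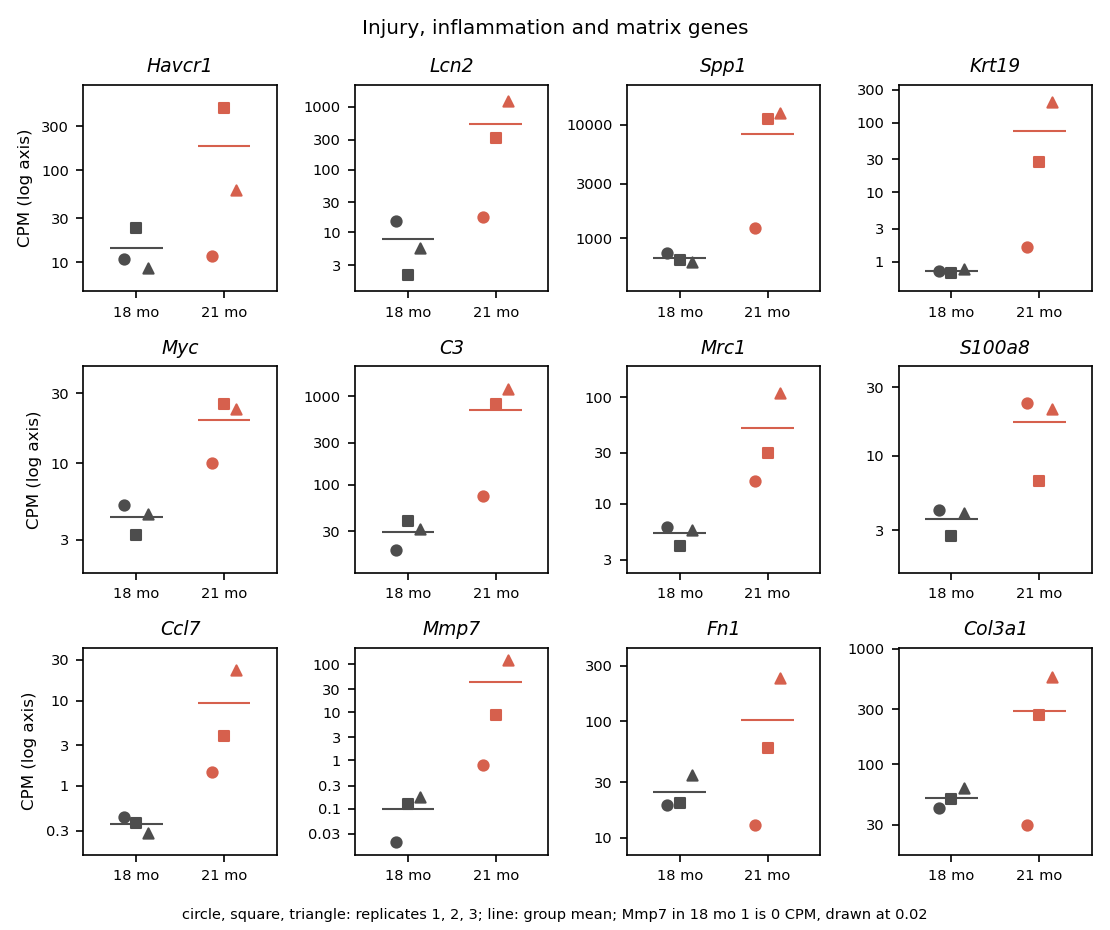
CPM on logarithmic axes of 12 injury, inflammation and matrix genes in the 18 mo (grey) and 21 mo (red) mice, with circles, squares and triangles for replicates 1 to 3 and lines for group means. For Havcr1, Fn1 and Col3a1 the circle of the first older mouse lies among or below the younger mice while the others lie above, whereas Mrc1, Myc and S100a8 are higher in all 3.

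The older mice parted in the matrix genes. The 13 tested fibroblast genes were all higher in the fit, with a median of 1.28, but by mouse the medians were −0.65, 1.05 and 2.39, so the first older mouse lay below the younger mean. Col3a1, a fibrillar collagen gene, was at 41.8, 50.1 and 61.7 CPM in the younger and 29.7, 265 and 567 CPM in the older mice, and Fn1, fibronectin, at 19.01, 19.96 and 34.8 CPM and 12.9, 59.4 and 237 CPM. Col1a1, the main fibrillar collagen gene, was at 20.3, 22.7 and 33.9 CPM and 10.4, 63.7 and 168 CPM. In all 3 genes the first older mouse was the lowest of the 6 mice. Collagens had a median of 0.61, and 0.10 without the third mouse. Col12a1, a fibril-associated collagen gene, owed its value to the third mouse, at 8.05, 5.05 and 5.54 CPM and 8.76, 10.5 and 199 CPM. The smooth muscle actin gene Acta2, a myofibroblast marker, was at 22.9, 20.6 and 26.8 CPM and 22.7, 23.4 and 124 CPM and its log2 fold change was −0.038 without that mouse. Dcn, the proteoglycan decorin, was higher in all 3, at 31.7, 23.7 and 43.8 CPM and 44.4, 66.4 and 169 CPM. Col4a4, a basement membrane collagen gene of the glomerulus, was lower in all 3, at 252, 249 and 247 CPM and 211, 143 and 134 CPM.

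Other genes of matrix and its turnover had a median of 1.68, with 25 of 27 higher and a median of 0.54 without the third mouse. At an unadjusted p under 0.05, 18 were higher, against 14% of all genes, and 5 were higher without overlap, a share near the 13.5% of all genes. Mmp7, the protease matrilysin, had the largest fitted log2 fold change of all tested genes, 8.66. Its counts were 0, 2 and 3 in the younger mice and 12, 154 and 2618 in the older ones, a ratio of summed counts of 513 when scaled by library size (exact 95% interval for counting error 219 to 1580.0). All 3 older mice were above the younger, with most of the reads in the third. Mmp7 too could pass the count filter only through libraries other than those of the younger mice, which partly set its direction. Lox, the enzyme that crosslinks collagen and elastin, was at 2.54, 1.85 and 2.32 CPM and 4.95, 12.8 and 106 CPM.

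Several remaining lists differed in part. Ribosomal protein genes were higher in 27 of 28 cases with a median of 0.63, with medians of 0.00, 0.30 and 1.28 in the 3 older mice, as for Rpl7 at 458, 423 and 465 CPM and 612, 757 and 1285 CPM. Many of them have near-identical pseudogenes, so their counts are uncertain. Genes of glutathione and antioxidant defence had a median of −0.21, with 23 of 31 lower, but the α class glutathione transferases lay on the other side. Gsta2 was at 60.3, 123 and 102 CPM in the younger and 278, 263 and 178 CPM in the older mice and Gsta4 at 19.4, 19.7 and 20.1 CPM and 35.7, 54.8 and 132 CPM. Prdx5, a mitochondrial peroxiredoxin, was at 1698, 1632 and 1502 CPM and 1084, 619 and 424 CPM, and Ggt1, which breaks down filtered glutathione, at 1371, 1608 and 1383 CPM and 1169, 683 and 257 CPM.

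Clock genes had a median of −0.15 and split by gene. Besides Dbp, the repressor gene Ciart was lower without overlap, at 2.91, 4.81 and 5.49 CPM and 1.34, 1.53 and 1.603 CPM. Nfil3, which represses the targets of Dbp, was higher without overlap at 4.71, 4.99 and 4.75 CPM and 6.29, 9.21 and 24.6 CPM, while Arntl, the clock activator BMAL1, was at 3.28, 3.82 and 4.36 CPM and 11.04, 2.898 and 10.7 CPM and turned negative in 2 alternatives. The hour at which the kidneys were taken is not given in the sources used here, and its part in these values was not tested. Heat shock and chaperone genes had a median of 0.27, with the small heat shock protein gene Hspb1 at 15.7, 14.5 and 17.8 CPM in the younger and 24.1, 89.3 and 92.4 CPM in the older mice. Cholesterol synthesis genes had a median of −0.19. Mvd, which makes isopentenyl diphosphate, was lower in all 3 older mice at 67.5, 77.9 and 60.9 CPM and 49.2, 30.9 and 27.2 CPM. Growth factor and EGF family genes had a median of −0.04.

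**Figure D5:**
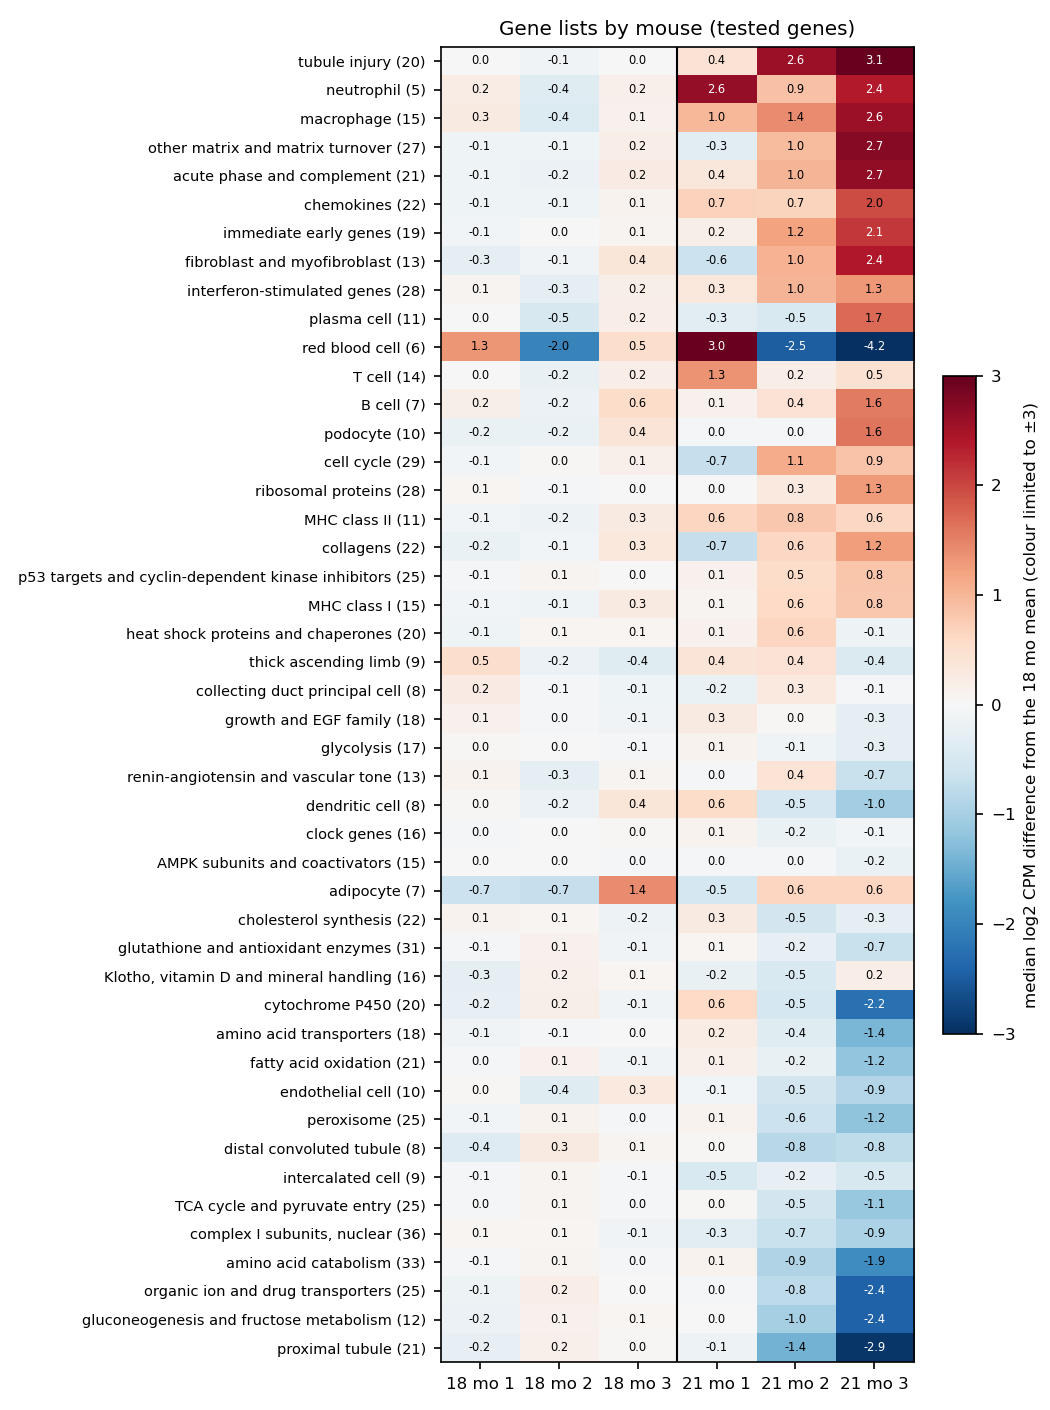
Rows are the gene lists, with the number of tested genes in brackets and ordered by their median log2 fold change, columns are the 6 mice, and the color and number give the median log2 CPM difference of the list from the 18 mo mean. The strongest colors of the 18 mo columns belong to red cell and adipocyte genes. In the 21 mo columns many rows deepen from the first mouse to the third, as for tubule injury at 0.43, 2.59 and 3.06 and proximal tubule at −0.15, −1.41 and −2.92.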

How the data were processed

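Kidney RNA from 3 libraries of the 18 mo group and 3 of the 21 mo group was compared, and 3 libraries of O304-treated mice entered the fit. Total RNA was taken with Trizol and made into libraries with the NEBNext Ultra RNA kit, which does not mark strand. The authors aligned reads with HISAT2 2.0.5 and deposited raw counts per gene from featureCounts 1.5.0-p3, and the submitters' notes name GRCm38 and mm10 as builds. The deposited table also held the authors' FPKM values per gene, used in 1 alternative and for levels per length. Its columns of fold changes and p-values, which the authors made with DESeq2 1.20.0 for 21 mo against 18 mo and for O304 against 21 mo, were not used.

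Genes were tested with edgeR 4.0.16 in R 4.3.3 by the quasi-likelihood test on 3 group means (TMM scaling, filterByExpr at its minimum of 10 counts, and 15 in total), two-sided, with 6 residual degrees of freedom. P-values were adjusted by Benjamini-Hochberg over the 15902 genes, with a threshold of 0.05. Genes below the count filter in every library of 1 group could enter only through the other libraries, which partly set their direction. The script was tested on simulated data in which each gene had the same spread in every group. That simulation therefore does not cover the unequal spread of the groups here. CPM values are TMM-scaled, and differences from the 18 mo mean are on log2 CPM with a prior count of 2. Totals were between 15636378 and 18227101 counts, and intervals cover counting error only. Samples were grouped by their titles, and the labels give no batch. The 46 gene lists hold 806 genes, of which 778 were tested, and some genes are in more than 1 list. No set test was run. Of the 137 genes followed through the alternatives, 58 overlap another annotated gene, with which their reads cannot be told apart. Counts of close copies (Ugt1a, Cyp4a, Gsta, Abcb1, C4, Gapdh, MHC and ribosomal protein genes) are uncertain.

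The genes named were the 12 with the largest change in each direction among protein-coding genes past the threshold, without overlap and at 1 CPM or more, filled by the smallest p among genes without overlap. From each list the gene written at its head and up to 3 members with the smallest p could be named, as could the 10 highest genes by FPKM and 15 genes chosen by name. C4b, Cfb, Fgb, Ggt1, Krt20, Lyz2, Nfil3, Prdx5, Slc22a6, Sox9, Vcam1, Gapdh and the genes found in every mouse were chosen after their values were seen. A few genes that the rule names are not reported here. The comparison, its genes and all lists were chosen with earlier results of these data known. Alternatives used DESeq2 1.42.0, limma 3.58.1, other scaling and filters, fewer libraries and the replicate number as a block, and those with DESeq2 and voom on 6 libraries were chosen after seeing the data.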

Additional observations from a re-analysis of the deposited data

How the results depend on the processing

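The count of genes past the threshold depended on the model far more than on the scaling. It was 3 in the reported fit, and also with upper-quartile scaling, robust fitting, a log2 fold change of at least 1 in either direction and limma on log2(FPKM + 1), where 2 were higher and 1 lower. It was 2 with at least 10 counts in every library and 0 in the fit on only the 6 libraries compared. DESeq2 gave 2058 (1154 higher, 904 lower), and 1036 on the 6 libraries. Keeping every gene with at least 1 count gave 576, an adjusted p under 0.1 gave 1664, and limma voom with quality weights gave 8409, or 7689 on the 6 libraries. The quality weights of the older mice were 0.223, 9.11 and 0.132, so that fit rests on 21 mo 2. The cause of the other differences was not tested. With the replicate block the count was 0. Same-numbered libraries deviated together by r = −0.06, 0.15 and 0.15, so the numbers were not taken as pairs.

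Leaving out each of the 6 libraries gave 0 to 4186 genes past the threshold and 2702 to 6614 at an unadjusted p under 0.05. Leaving out each 21 mo library gave 5413 to 8713 without overlap and 168 to 961 beyond 2-fold in every mouse, against 137 with all libraries. These 2 counts can only stay or rise when a 21 mo library is left out, so their rise was set in advance. The highest of each range came without 21 mo 1. Of the 137 genes followed, 5 turned direction somewhere and 12 of the 46 lists changed sign. The log2 fold change of Hbb-bs was −2.56 with quality weights, −2.48 with them on 6 libraries, −1.05 on FPKM and −0.026 with the replicate block, and −3.73 to 1.91 with 1 library left out. Jchain was at −0.60 and −0.54 with quality weights on 9 and 6 libraries and at −0.68 to 1.27 with 1 left out. Acta2 was at −0.013 with quality weights and at −0.038 to 1.67 with 1 left out. Arntl was at −0.38 and −0.33 with quality weights, and Ppargc1a at −0.19 to 0.30 with 1 library left out.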

Other observations

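Of the 57 genes that lay at least 2-fold below the younger range in every older mouse, 7 were annotated as lincRNA and 6 as antisense, and of the 80 genes on the higher side 1 was a lincRNA and 0 were antisense. These genes were chosen after their values were seen, and the difference in gene types was not tested. The shares of these types among all tested genes are not given here, so no conclusion is drawn from the counts.

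Gapdh, the glycolytic enzyme often used as a reference gene, was at 8.24, 6.35 and 83.2 CPM in the 18 mo mice and 2.81, 2.73 and 3.80 CPM in the 21 mo mice. Its log2 fold change was −3.38 with an SE of 1.59 and an adjusted p of 0.214 (edgeR), and 18 mo 3 stood far above the other 5 libraries. The level is low for a gene that nearly all cells use, and its count is uncertain because close copies of the gene exist in the genome.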
